A study of Mus musculus with 6 samples.

Results

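The genes described here make the proteins that copy DNA and the nucleotides it is copied from. They were 48 genes in 8 roles, namely the MCM helicase and its partners, origin recognition and licensing, the sliding clamp and its loader, the polymerases and primase, single-strand binding and fragment joining, nucleotide supply, G1/S regulators and chromatin assembly. A gene was measured where a probe carrying its symbol reached a detection p-value below 0.05 on 3 or more of 6 arrays, and it is shown by the brightest such probe. This left 39 of the 48 genes, among 7967 genes measured on the arrays. All 39 were detected on all 6 arrays, so none of them entered through 1 group alone.

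The arrays tested valproic acid (VPA), an inhibitor of histone deacetylases, on blood-forming stem and progenitor cells (HSPC). These came from the bone marrow of C57Bl/6 mice and were isolated by their L-S+K+ surface phenotype. VPA was added at 1 mM to 3 cultures for 24 h, and 3 control cultures were kept for the same 24 h without it. All 6 cultures grew in liquid medium containing serum of fetal calves and the mouse growth factors SCF (stem cell factor) and GM-CSF (granulocyte/macrophage colony stimulation, recombinant), so the controls too were under growth factor stimulation. Each culture gave 1 single-colour Illumina array, and the series describes the replicates as independent and biological. Cell number, viability and cell cycle phase were not measured in the data used here.

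In each cell cycle the origin recognition complex marks the places where replication can start, and Cdc6 and Cdt1 load the MCM helicase there. Activation of the helicase by Cdc45 and the GINS complex opens the DNA, after which primase and the polymerases copy it, held in place by the PCNA ring that the RFC complex loads. Much of this set is transcribed under E2F factors as a cell passes from G1 into S phase, while ribonucleotide reductase, thymidylate synthase and thymidine kinase supply the deoxynucleotides. Stem cells in the marrow divide rarely, and SCF and GM-CSF drive progenitors into division.

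Promoter sequences of some of these genes are printed here, marked for letters of the E2F type. They are given from RefSeq on GRCm38.p6, read 5′ to 3′ on the gene's strand, from 200 bases before the start that the table uses up to the annotated edge of the gene, with E2F letters in capitals. Mcm5 and Mcm6 are shown as helicase subunits whose estimates lay below 0, Orc3 as a gene with such letters that lay above it, and Cdc45 and Tyms as the genes with the lowest p-values in the comparisons below.
Mcm5, chr8:75109309-75109467, plus strand: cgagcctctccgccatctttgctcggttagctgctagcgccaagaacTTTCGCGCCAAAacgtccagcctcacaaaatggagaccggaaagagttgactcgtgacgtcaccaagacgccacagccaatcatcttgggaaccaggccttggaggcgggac
Mcm6, chr1:128359706-128359905, minus strand: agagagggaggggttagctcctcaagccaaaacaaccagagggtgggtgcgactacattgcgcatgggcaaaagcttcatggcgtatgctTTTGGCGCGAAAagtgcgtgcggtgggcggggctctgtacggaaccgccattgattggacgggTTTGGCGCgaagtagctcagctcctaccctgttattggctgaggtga
Orc3, chr4:34614964-34615142, minus strand: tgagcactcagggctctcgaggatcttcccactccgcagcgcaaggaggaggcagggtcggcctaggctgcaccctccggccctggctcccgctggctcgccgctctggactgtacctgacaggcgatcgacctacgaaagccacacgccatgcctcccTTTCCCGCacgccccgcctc
Cdc45, chr16:18811973-18812172, minus strand: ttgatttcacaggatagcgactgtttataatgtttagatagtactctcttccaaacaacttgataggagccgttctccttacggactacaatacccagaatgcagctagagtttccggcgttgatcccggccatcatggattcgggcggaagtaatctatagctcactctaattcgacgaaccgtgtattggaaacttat
Tyms, chr5:30073646-30073825, minus strand: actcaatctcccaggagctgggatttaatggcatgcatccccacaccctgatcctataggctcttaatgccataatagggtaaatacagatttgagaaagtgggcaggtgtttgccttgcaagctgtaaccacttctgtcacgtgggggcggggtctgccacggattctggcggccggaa

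The letters searched were TTTGGCGC, TTTCCCGC, TTTGCCGC and TTTCGCGC on both strands, in windows of 300 bases. The match in Mcm5 is a pair of overlapping words, and Mcm6 holds a like pair and a further word nearer the start. Windows were in the table for 40 of the 48 genes, and 14 of these genes, 35.0%, had a match, against 2.60% of all 27025 genes in the table. Counted by window, 14 of 48 windows of these genes (29.2%) and 2.26% of all 32851 windows held one. The 14 were Cdc6, Cdt1, Gins3, Lig1, Mcm3, Mcm5, Mcm6, Mcm7, Orc1, Orc3, Pola1, Pold1, Pole2 and Rfc3. In Cdt1, Lig1, Mcm3, Pold1 and Pole2 the letters lay only after the start, within the first 50 bases. The pentamer CCAAT was in the windows of 24 of the 40 genes (60.0%, against 41.1% of all genes) and the word GGGCGG in 31 (77.5%, against 38.2%). The last of these words can overlap the E2F words by a few bases, and a match is a run of letters, not a bound site.

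Array quality bears on every value below. Kept probes had a median raw signal of 226 on VPA replicate 1 and 456 to 647 on the other 5 arrays, or 2.37 times the median of undetected probes against 3.93 to 4.82 times. Detected probes, however, were most numerous on VPA replicate 1, at 11439 against 10846 to 11097 on the other 5 arrays. Normalized values of VPA replicate 1 correlated with VPA replicates 2 and 3 at r = 0.957 and 0.947 across probes, while replicates 2 and 3 reached 0.991 and pairs of controls at least 0.989. Results are therefore given with and without that array. Of 6 markers of immature cells, Cd34, Flt3, Gata2 and Meis1 were detected on all arrays and Hlf on 0. The log2 summed signal of 5 lymphoid markers was 7.38 to 7.69 with VPA and 8.72 to 9.12 in control, and that of 5 mast cell and basophil markers was 8.15 to 8.90 with VPA and 9.21 to 9.63 in control. Of these markers 0 lymphoid ones and 1 mast cell one were detected on all arrays, so the sums include signals at background. Il7r, by its brightest probe, was detected on 0 VPA arrays and 3 control arrays, and so entered through the controls alone. Dntt was detected on 1 VPA array and 3 control arrays. Both were called lower over 6 arrays by limma, Il7r at -1.88 (adjusted p = 0.00108) and Dntt at -2.31 (adjusted p = 0.00524). Cpa3, of mast cells, was called lower by the probes at -1.70 and -1.54 (adjusted p = 0.0260 and 0.00681), each detected on 2 VPA arrays and 3 control arrays. In the same list Fcer1a (-0.68, adjusted p = 0.0506) and Mcpt8 (-0.78, adjusted p = 0.361) were not called. The granulocyte precursor, mature neutrophil, erythroid, megakaryocyte and macrophage lists overlapped between the groups in their sums, but single genes in them did not. All 3 Mpo probes, Prtn3, Camp and Ngp lay wholly below control, with log2 changes of -1.49 to -0.75, none of them called over 6 arrays. In the same lists Ctsg, Elane, Ms4a3, Ltf, S100a8 and S100a9 overlapped between the groups, at -0.73 to 0.22. Without VPA replicate 1, limma called Mpo lower by the probes then at -1.68 and -1.04 (adjusted p = 0.0311 and 0.0401). The Mpo probe then at -0.70 was not called (adjusted p = 0.0989). By limma Mrc1, of macrophages, was called lower (-1.66, adjusted p = 0.0166). Adgre1, of the same list, went the other way without a call, at 0.78 and 0.77 by its detected probes (adjusted p = 0.290 and 0.338). The detected Lyz2 probes were at -0.36 and 0.070. Epor, of erythroid cells, was called higher (0.78, adjusted p = 0.0299), but was detected on 3 VPA arrays and 0 control arrays, so it entered through VPA alone. Gata1, Ppbp, Cd3e, Gzmb, Ms4a2 and C1qa were detected on 0 arrays. The part of cell type in the values below was not tested, and in bulk RNA fewer cells of a type and less RNA per cell cannot be told apart.

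By limma over all kept probes, 0 of the 39 replication genes passed an adjusted p of 0.05 in either direction between VPA and control. Over all measured genes, 3.41% were called higher and 0.314% lower. With p under 0.05 before adjustment, 3 of the 39 were lower (Cdc45, Cdc6 and Rpa2) and 0 higher, where the shares over all genes were 5.59% lower and 11.5% higher. The median log2 change was -0.14, against -0.016 over all measured genes, and 25 of 39 estimates lay below 0 (64.1%, against 52.0% of all genes). Where the arrays were scaled to a common median in place of quantile normalization, the median was -0.048, against -0.017 over all genes, and 21 of 39 lay below 0 (53.8%). A log2 change of 1 is 2-fold, and the 95% interval stayed within 2-fold in both directions for 31 of the 39. In 10 genes the 3 VPA arrays all lay below the 3 control arrays (25.6%, against 11.2% of all genes), and in 3 they all lay above (7.69%, against 16.7%).

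Without VPA replicate 1, the median log2 change was -0.073, against -0.0047 over all genes, and 24 of 39 estimates lay below 0. By limma 1 gene of the 39, Tyms, was then called lower and 0 higher, where 1.59% of all genes were called lower and 6.20% higher. The interval stayed within 2-fold for 38 of the 39, the exception being Mcm3. This smaller fit had 2 VPA arrays, and its spread rests largely on the controls. The median SD between replicates over the 39 genes was 0.28 in VPA and 0.089 in control, n = 3 each, and 0.077 between VPA replicates 2 and 3.

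**Figure D1:**
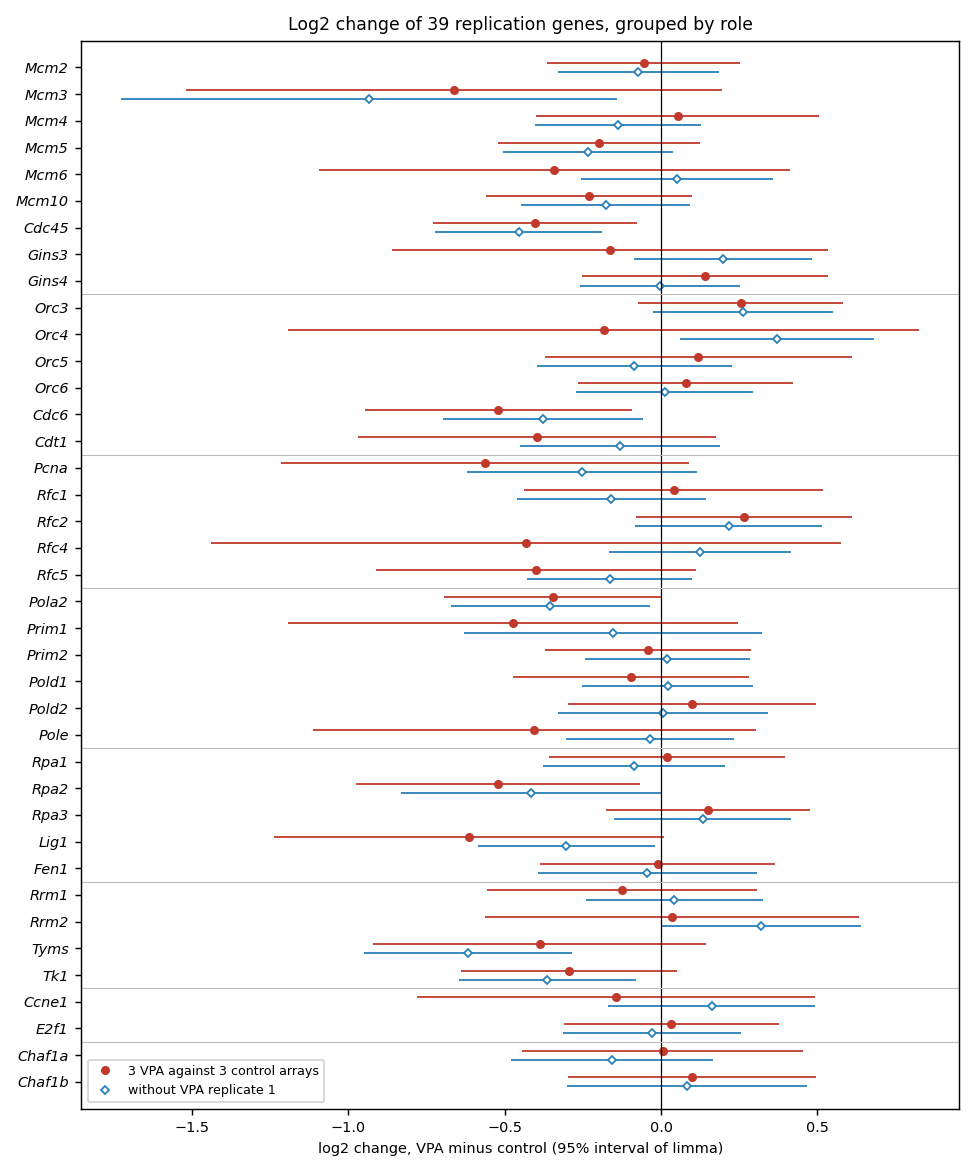
Log2 change, VPA minus control, of the 39 measured replication genes, in blocks by role from the helicase at the top to chromatin assembly at the bottom. Filled circles are from 3 VPA against 3 control arrays and open diamonds from the fit without VPA replicate 1, with 95% intervals of limma. Estimates from 6 arrays lie between -0.66 and 0.26, and many intervals narrow when the array is left out.

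Of the 12 helicase genes 9 were measured, and 7 of the 9 estimates lay below 0. Cdc45, which activates the helicase with GINS, had normalized log2 signals of 9.54, 9.44 and 9.33 on the VPA arrays, against 9.83, 9.88 and 9.81 on the control arrays. The groups did not overlap and both were tight. Its log2 change was -0.40 ± 0.14 (SE, n = 3 per group), or 1.32-fold lower, with an unadjusted p of 0.0218 and an adjusted p of 0.197 by limma. Leaving out VPA replicate 1 gave a log2 change of -0.46 and an adjusted p of 0.0566, just over the threshold. Mcm5 was at 13.26, 13.21 and 13.10 with VPA and at 13.34, 13.36 and 13.46 in control. Its log2 change was small, -0.20 ± 0.14 (adjusted p = 0.498), and 0.22 where the arrays were scaled to a common median in place of quantile normalization.

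Mcm10, which binds the helicase at the start of replication, was at 11.49, 11.71 and 11.60 with VPA and 11.78, 11.82 and 11.89 in control (-0.23 ± 0.14). Mcm2 was at 12.06, 11.99 and 12.02 with VPA and 12.07, 12.09 and 12.08 in control. All its VPA arrays lay below, but the log2 change was only -0.056 ± 0.13, and 0.20 with median scaling. Mcm3 had the lowest estimate of the 39, -0.66 ± 0.37 (adjusted p = 0.405), and one of the widest spreads. It was at 8.83, 7.89 and 8.14 with VPA and at 9.54, 9.05 and 8.26 in control, so control replicate 3 lay below VPA replicate 1. Its log2 change was -0.93 without VPA replicate 1 and -0.37 without control replicate 1.

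The other helicase genes had estimates on both sides of 0. Mcm4 had a log2 change of 0.053 ± 0.19 and Mcm6 one of -0.34 ± 0.32. Mcm6 was at 11.87 on VPA replicate 1 and at 12.91 and 13.19 on the other VPA arrays, against 12.93 to 13.04 in control, and without that array its log2 change was 0.050. Of the GINS complex, Gins3 was at 8.07 on VPA replicate 1 against 9.09 and 9.21 on the others, and its log2 change was -0.16 ± 0.30, or 0.20 without that array. Gins4 had a log2 change of 0.14 ± 0.17, and -0.0036 without it. The measured subunits of the MCM hexamer had estimates of -0.66 to 0.053, with intervals that overlapped. Gins1 and Gins2 had no probe of that symbol, and Mcm7 was not detected on enough arrays.

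Of 8 genes of origin recognition and licensing, 6 were measured. Cdc6, the loader of the helicase, had log2 signals of 9.59, 9.88 and 10.16 with VPA, against 10.50, 10.32 and 10.38 in control. The groups did not overlap, with VPA replicate 1 lowest. The log2 change was -0.52 ± 0.18, or 1.43-fold lower, with an unadjusted p of 0.0231 and an adjusted p of 0.203, and -0.38 without VPA replicate 1 (adjusted p = 0.144). Cdt1, the second loader, was at 11.49, 12.24 and 12.32 with VPA and 12.35, 12.60 and 12.28 in control, and its groups overlapped. Its log2 change was -0.40 ± 0.25 with VPA replicate 1 and -0.13 without it.

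Of the origin recognition complex, 3 of the 4 measured subunits had estimates above 0. Orc3 was at 8.38, 8.51 and 8.29 with VPA and 8.09, 8.14 and 8.18 in control, all VPA arrays above, with a log2 change of 0.25 ± 0.14 (adjusted p = 0.405). That change was as large, 0.26, without VPA replicate 1. Orc5 (0.12 ± 0.21) and Orc6 (0.078 ± 0.15) overlapped between the groups. Orc4 was at 5.61 on VPA replicate 1 and 7.13 and 7.42 on the other VPA arrays, against 6.85 to 6.93 in control. Its log2 change was -0.18 ± 0.43 with that array and 0.37 without it (adjusted p = 0.140).

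**Figure D2:**
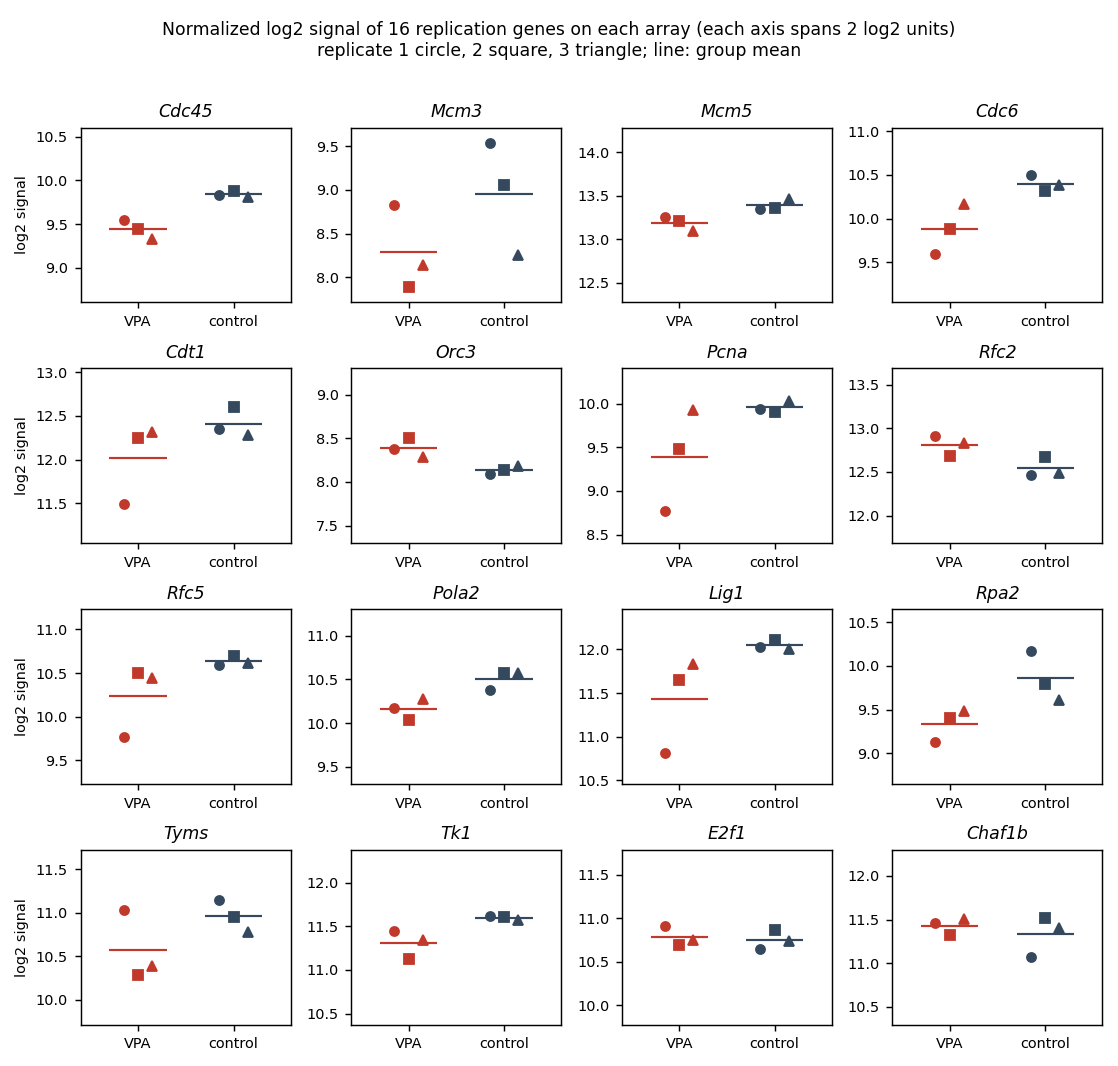
Normalized log2 signal of 16 replication genes on each array, VPA at the left and control at the right of each panel. Circles are replicate 1, squares replicate 2, triangles replicate 3 and lines the group means, and each axis spans 2 log2 units. The groups do not overlap in Cdc45, Mcm5, Cdc6, Orc3, Rfc2, Rfc5, Pola2, Lig1, Rpa2 and Tk1. Lig1, Pcna, Cdt1 and Rfc5 have VPA replicate 1 well below the other arrays, and Tyms has it above VPA replicates 2 and 3.

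PCNA is the ring that holds polymerases on DNA, and RFC opens and closes it. Pcna was at 8.78, 9.48 and 9.93 with VPA and at 9.93, 9.90 and 10.03 in control. VPA replicate 3 lay among the controls and VPA replicate 1 far below. The log2 change was -0.56 ± 0.28 (adjusted p = 0.360), and -0.25 without VPA replicate 1. Rfc5 was at 9.76, 10.50 and 10.45 with VPA and 10.59, 10.70 and 10.62 in control, without overlap (-0.40 ± 0.22, or -0.16 without VPA replicate 1). Rfc2 was at 12.91, 12.68 and 12.84 with VPA and 12.47, 12.68 and 12.49 in control. All VPA arrays lay above all controls, VPA replicate 2 by less than 0.01. It had the highest estimate of the 39, 0.26 ± 0.15 (adjusted p = 0.410). Rfc4 was at 9.74, 11.31 and 11.50 with VPA and 11.29, 11.36 and 11.20 in control, so that its log2 change of -0.43 ± 0.43 was 0.12 without VPA replicate 1. Rfc1, the large subunit, had a log2 change of 0.040 ± 0.20. Rfc3 had no probe of that symbol.

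Of 8 polymerase and primase genes 6 were measured, 5 of them with estimates below 0, or 3 without VPA replicate 1. Pola2, the regulatory subunit of polymerase alpha, was at 10.18, 10.03 and 10.28 with VPA and 10.38, 10.57 and 10.58 in control. The groups did not overlap, and the log2 change of -0.35 ± 0.15 (adjusted p = 0.296) was as large without VPA replicate 1 (-0.35). Prim1, the catalytic primase subunit and a dim probe, was at 5.75, 6.55 and 6.87 with VPA and 7.22, 6.75 and 6.62 in control (-0.47 ± 0.31, adjusted p = 0.469). Pole, the catalytic subunit of the leading-strand polymerase epsilon, was at 8.95, 10.07 and 10.05 with VPA and 10.16, 10.09 and 10.02 in control. Its change of -0.40 ± 0.30 was -0.035 without VPA replicate 1. Pold1 and Pold2, of the lagging-strand polymerase delta, had log2 changes of -0.097 ± 0.16 and 0.099 ± 0.17, and Prim2 one of -0.041 ± 0.14. In Pold1 and Prim2 the interval without VPA replicate 1 ran from -0.25 to 0.29 and from -0.24 to 0.28.

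All 5 genes of single-strand binding and fragment joining were measured. The RPA complex coats single-stranded DNA, and the estimates of its 3 subunits lay on both sides of 0. Rpa2 was at 9.13, 9.40 and 9.48 with VPA and 10.17, 9.79 and 9.61 in control, without overlap. Its log2 change was -0.52 ± 0.19, or 1.43-fold lower, with an unadjusted p of 0.03 and an adjusted p of 0.229. It was -0.42 without VPA replicate 1 (adjusted p = 0.199), and without control replicate 1 it was -0.37. A second Rpa2 probe had a log2 change of -0.57 (adjusted p = 0.530), but -0.022 without VPA replicate 1 (adjusted p = 0.943). Rpa3 was at 11.78, 11.70 and 11.76 with VPA and 11.50, 11.60 and 11.70 in control, and the lowest VPA array lay above the highest control by less than these decimals show (0.15 ± 0.14). Rpa1, the large subunit, had a log2 change of 0.0195 ± 0.16.

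Lig1, the ligase that seals Okazaki fragments, was at 10.81, 11.65 and 11.84 with VPA and 12.03, 12.11 and 12.00 in control. The groups did not overlap, with VPA replicate 1 lowest by far. The log2 change was -0.61 ± 0.27 (adjusted p = 0.299), and -0.30 without that array (adjusted p = 0.174). Fen1, the nuclease that trims the same fragments, had a log2 change of -0.011 ± 0.16, with an interval of -0.39 to 0.36.

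The genes of nucleotide supply gave the 1 call of the comparison without VPA replicate 1. Tyms, thymidylate synthase, was at 11.03, 10.29 and 10.39 with VPA and 11.14, 10.95 and 10.78 in control. VPA replicate 1 lay among the controls and the other VPA arrays below all of them. Over 6 arrays the log2 change was -0.39 ± 0.23 (adjusted p = 0.425). With 2 VPA arrays, replicate 1 left out, Tyms fell by 0.62 on the log2 scale, or 1.53-fold, with an SE of 0.14 and an adjusted p of 0.0458 by limma. Where the normalization too was done on 5 arrays, the adjusted p was 0.0491, so the call stood close to the threshold in both.

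Tk1, thymidine kinase of the salvage pathway, was at 11.44, 11.13 and 11.34 with VPA and 11.61, 11.61 and 11.57 in control. The groups did not overlap and the controls were tight. The log2 change was -0.30 ± 0.15 (adjusted p = 0.364), and -0.36 without VPA replicate 1 (adjusted p = 0.118). The subunits of ribonucleotide reductase, which makes deoxynucleotides from ribonucleotides, had estimates nearer 0. Rrm1 had a log2 change of -0.12 ± 0.19. Rrm2 was at 9.44, 10.33 and 10.25 with VPA and 10.02, 9.79 and 10.11 in control, a log2 change of 0.036 ± 0.26, or 0.32 without VPA replicate 1 (adjusted p = 0.200).

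Of the G1/S regulators, E2f1, the factor that switches on many of these genes, was at 10.91, 10.69 and 10.74 with VPA and 10.65, 10.86 and 10.74 in control. The groups overlapped, and the log2 change of 0.033 ± 0.15 had an interval of -0.31 to 0.38. Ccne1, the cyclin E that activates Cdk2, was at 6.84, 7.72 and 7.81 with VPA and 7.51, 7.49 and 7.81 in control (-0.14 ± 0.27, or 0.16 without VPA replicate 1). The subunits of chromatin assembly factor 1, which places histones on new DNA, also overlapped. Chaf1a was at 11.19, 10.73 and 10.68 with VPA and 10.69, 11.03 and 10.88 in control (0.0051 ± 0.19), and Chaf1b at 11.47, 11.32 and 11.50 with VPA and 11.07, 11.52 and 11.40 in control (0.099 ± 0.17).

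The 6 genes below the detection filter had signals near background in both groups. Mcm7 was detected on 1 VPA array and 0 control arrays, and Ccne2 on 0 VPA arrays and 1 control array. Orc1, Orc2, Pola1 and Pole2 were detected on 0 of the arrays. These are statements about single probes, since several further probes of measured genes were also undetected, among them 2 of the 3 Mcm4 probes beside one at 13.20 to 13.78. Just inside the filter stood the dimmest measured genes, Orc4, at 5.61 to 7.42, and Prim1, at 5.75 to 7.22, and just outside it Mcm7, at 4.96 to 5.93, and Ccne2, at 4.88 to 5.75.

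The replication genes deviated unevenly on VPA replicate 1. Set against the control mean, the median of the 39 genes was -0.16 on VPA replicate 1, -0.092 on VPA replicate 2 and -0.045 on VPA replicate 3. Each control array, set against the mean of the other controls, had a median between -0.065 and 0.020. On VPA replicate 1, 14 genes lay more than 0.5 below the control mean and 1 more than 0.5 above it, while 3 genes on each of VPA replicates 2 and 3 lay that far below. That far above lay 0 genes on VPA replicate 2 and 1 on VPA replicate 3. Over all genes 24.6% lay that far below on VPA replicate 1 and 22.2% that far above. On VPA replicates 2 and 3, 5.42% and 6.97% of all genes lay that far below and 9.39% and 10.5% that far above. The clamp and its loader had the lowest median on that array, -0.87, against -0.14 on VPA replicate 2 and -0.031 on VPA replicate 3. The helicase genes had like medians on all 3 VPA arrays, -0.13, -0.12 and -0.13, but single genes among them parted on VPA replicate 1. Its difference from the mean of VPA replicates 2 and 3 was -1.17 in Mcm6 and -1.08 in Gins3, but 0.81 in Mcm3 and 0.57 in Mcm4.

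**Figure D3:**
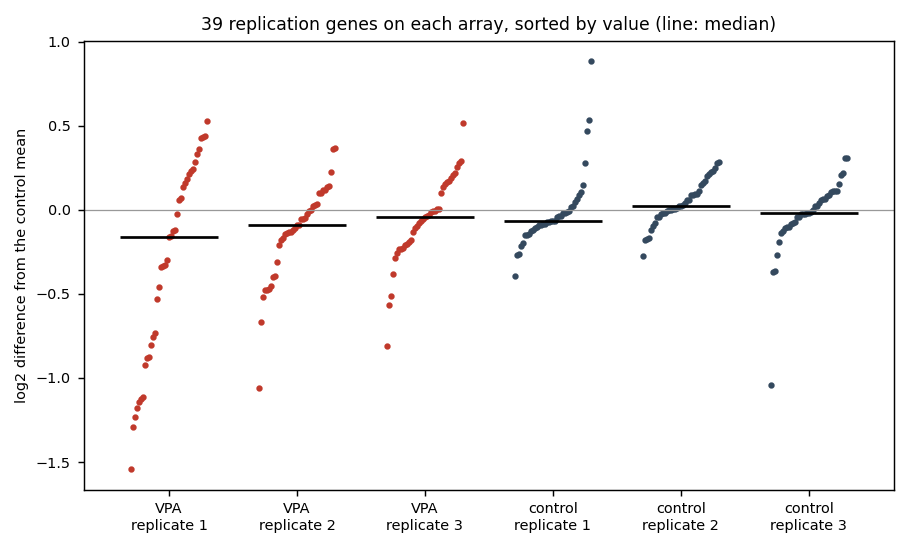
Log2 difference of each of the 39 replication genes from the control mean on each array, sorted within the array, VPA at the left and control at the right. A control array is set against the other controls, and lines are medians. VPA replicate 1 spreads from -1.54 to 0.53, while the other VPA arrays keep most genes within 0.5 of 0.

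Probes of the same gene parted on that array. Of the 39 genes 11 had more than 1 kept probe, with 28 kept probes in all, and in 5 of these genes (Mcm10, Cdc6, Lig1, Tyms and Tk1) VPA replicate 1 lay above VPA replicates 2 and 3 by one probe and below them by another. The 5 Tyms probes deviated there by -1.96 to 0.69, and the 4 Lig1 probes by -1.78 to 1.27. Between the groups over 6 arrays, however, all probes of each of the 11 genes had log2 changes of the same sign. The 5 Tyms probes ranged from -1.11 to -0.041, the 4 Lig1 probes from -0.86 to -0.61, the 3 Mcm6 probes from -0.45 to -0.34 and the 2 Tk1 probes from -0.47 to -0.30. In other genes a further probe had an estimate near 0: the 2 Cdc6 probes were at -0.52 and -0.055, and the 2 Mcm10 probes at -0.23 and -0.035. The Cdc6 probe at -0.055 had signals near background, 5.35 to 6.54, and was detected on 3 arrays. Its interval was -0.81 to 0.70, and that of the Mcm10 probe at -0.035 was -0.62 to 0.55. By limma 0 of the 28 passed over 6 arrays. In the smaller fit 2 passed, the Tyms probe described above and a Lig1 probe at -1.28 (adjusted p = 0.0403). That Lig1 probe was dim, with signals of 5.99 to 7.89, and the other 3 Lig1 probes were at -0.30, -0.30 and -0.25. The other 4 Tyms probes were at -0.46 to -0.051. Of these, the probe at -0.46 was detected on all 6 arrays. The probes at -0.30, -0.16 and -0.051 had signals near background, 4.68 to 6.33, and were detected on 4, 5 and 4 arrays. In that smaller fit the 3 Mcm6 probes disagreed in sign, from -0.36 to 0.050. The probes of Orc5 (-0.24 and -0.086), Rfc4 (0.12 and 0.17) and Prim2 (0.012 and 0.020) all took the sign opposite to that over 6 arrays.

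**Figure D4:**
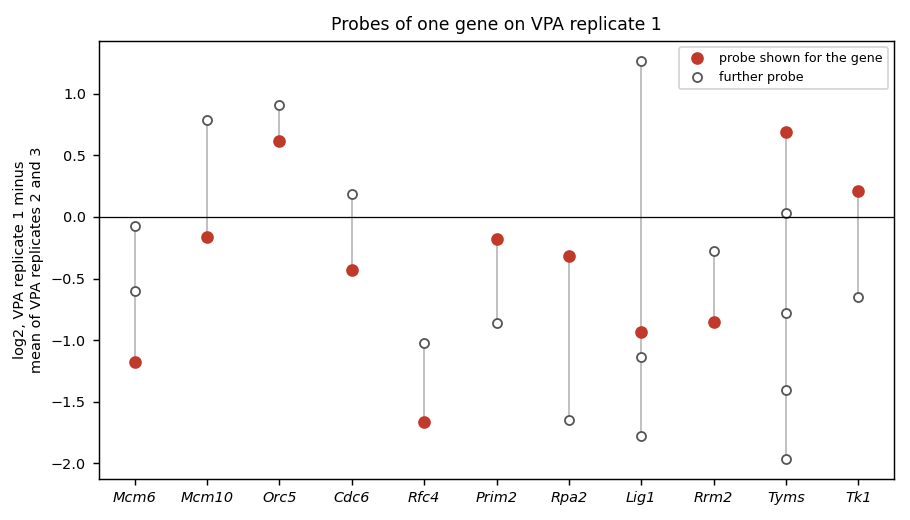
Log2 difference of VPA replicate 1 from the mean of VPA replicates 2 and 3 for each kept probe of the 11 replication genes with more than 1. Filled circles are the probes shown for the gene and open circles the further probes, joined by a line. In 5 genes the line crosses 0, and it spans 3.04 log2 units in Lig1 and 2.65 in Tyms.

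Genes with and without E2F letters overlapped in their changes. The 9 measured genes with a match had log2 changes of -0.66 to 0.25 with a median of -0.34, and 8 of the 9 lay below 0. The 25 measured genes with a window but no match had changes of -0.56 to 0.15 with a median of -0.12, and 15 lay below 0. In the fit without VPA replicate 1 the medians were -0.13 and -0.086. Of the 9, Gins3 (0.20), Mcm6 (0.050), Pold1 (0.021) and Orc3 (0.26) then lay above 0. Mcm3, Mcm5, Cdc6, Cdt1 and Lig1 stayed below it. Cdc45 and Tyms, printed above without capitals, were among the 25, and Orc3, with a match, was the gene of the 9 above 0.

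Further lists of the pathway were read in the same fit. Of 40 other genes of origins, forks and chromatin assembly 31 were measured, of which 0 passed in either direction by limma. Mcm9, a helicase of recombination repair, was detected on 0 VPA arrays and 3 control arrays, so it entered through the controls alone and could only come out lower (-0.67 ± 0.21, adjusted p = 0.161). Of the other 30, a count made after seeing the data, 2 had p under 0.05 before adjustment, both lower, and the median log2 change was -0.17. Dscc1, a subunit of an alternative clamp loader, had the lower p of these (-0.87 ± 0.29, adjusted p = 0.190). Of 38 other genes of nucleotide synthesis 33 were measured, of which 0 passed. Ctps2, a CTP synthase, likewise entered through 3 control arrays and 0 VPA arrays. Of the other 32, counted in the same way, 2 had p under 0.05 before adjustment, both lower, and the median log2 change was -0.13. Atic, of purine synthesis, had a log2 change of -0.53 ± 0.17 (adjusted p = 0.186) and Dguok, the mitochondrial deoxyguanosine kinase, one of -0.59 ± 0.20 (adjusted p = 0.197). Leaving out VPA replicate 1, Dguok fell by 0.75 on the log2 scale (adjusted p = 0.0297).

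Of 25 genes of the E2F, RB and cyclin-dependent kinase list 18 were measured, and 1 rose (5.56%, against 3.41% of all genes) and 0 fell. Cdkn1c, the kinase inhibitor p57, was at 9.65, 8.53 and 8.62 with VPA and 7.03, 7.29 and 7.45 in control, a log2 change of 1.67 ± 0.31 (adjusted p = 0.0321). In the fit without VPA replicate 1 that change was 1.32 (adjusted p = 0.00372). Its lowest VPA array lay more than 1 log2 unit above its highest control. In the fit without VPA replicate 1, Rb1, the retinoblastoma protein that holds E2F in check, also rose, by 0.95 (adjusted p = 0.00487). Over 6 arrays Rb1 was at 10.03, 10.66 and 10.53 with VPA and 9.62, 9.69 and 9.62 in control (0.76 ± 0.19, adjusted p = 0.0909). The list median was 0.090.

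**Figure D5:**
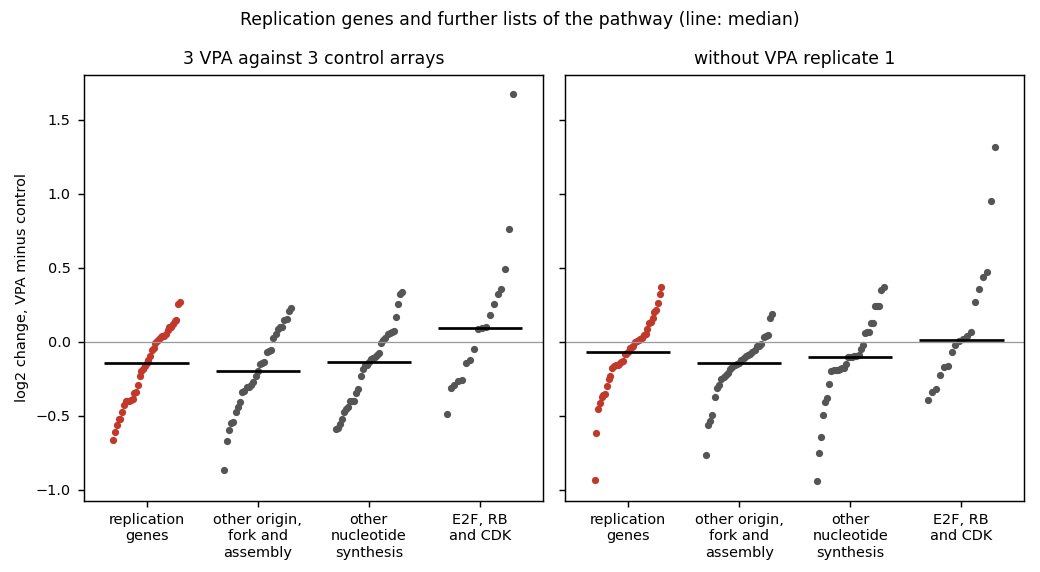
Log2 change, VPA minus control, of the 39 replication genes and of 3 further lists, sorted within each list, with medians as lines, from all 6 arrays at the left and without VPA replicate 1 at the right. The replication genes have medians of -0.14 and -0.07, and Cdkn1c stands highest, in the list of E2F, RB and cyclin-dependent kinase genes.

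Weighting the arrays by an estimate of their quality gave more calls, but the estimate of the weights stopped before it converged. The weights were 0.090 for VPA replicate 1, 13.0 for VPA replicate 2 and 0.54 for VPA replicate 3, and 1.03 to 1.46 for the controls, so the VPA side rested almost wholly on VPA replicate 2. In that fit 9 of the 39 genes were called lower (Mcm3, Cdc45, Cdc6, Pcna, Pola2, Rpa2, Lig1, Tyms and Tk1) and 2 higher (Orc3 and Rrm2), where 14.2% of all genes were called lower and 17.1% higher. The log2 changes of these genes were -1.06 for Mcm3 to -0.40 for Lig1, and 0.36 for Orc3 and 0.37 for Rrm2.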

How the data were processed

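Per the file headers, the deposited table of the series gives a raw signal intensity and a detection p-value for each of 25697 probes on 6 arrays. The submitters' processing notes list GenomeStudio with no version number. A second deposited table holds log2 values whose normalization is not given in the sources used here, and it was used only as an alternative. Background correction and quantile normalization were by neqc (offset 16) of limma 3.58.1 under R 4.3.3, which infers negative controls from the detection p-values. The detection filter described above kept 11115 probes. Symbols came from the GEO platform annotation, which gives 1 symbol for 23978 probes and none for 1719, and 0 changed on lookup by Entrez identifier in GRCm38.p6.

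The model of VPA against control (lmFit, eBayes) was fitted to every kept probe, and p-values were adjusted by Benjamini-Hochberg with a threshold of 0.05. The procedure was tested on simulated data. Precision is limited by 3 arrays per group, with which an exact permutation test of 1 gene, two-sided, reaches 0.1 at best. Values on every array are given for genes called, genes whose groups did not overlap and the 2 genes of each role with the largest change, and for further genes where 1 array stood apart, these last chosen after their values were seen. From each further list those past the threshold are named, or else the 2 with the lowest p; Ctps2 was named after its values were seen. The genes and lists were chosen with earlier results of these data known, and the printed promoters after their values were seen. Promoter windows run from 250 bases before to 50 after the start. The 18 alternatives comprised other background corrections, normalizations, detection filters and variance models, array weights, a replicate block, each array left out in turn, and averaging the probes of a gene.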

Additional observations from a re-analysis of the deposited data

How the results depend on the processing

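Of the 39 replication genes 0 were called over 6 arrays by limma, and 0 in 15 of the 18 alternatives, with 0 to 7 lower and 0 to 2 higher at an unadjusted p under 0.05 in those 15. Array weights, whose estimate did not converge, called 9 lower and 2 higher. Leaving VPA replicate 1 out of the fit called 1 lower, Tyms, as did leaving it out of the normalization as well. With each of the 6 arrays left out in turn, the count lower was 0 to 1 and that higher 0. The genes' median log2 change, -0.14, ranged from -0.23 (without VPA replicate 3) to -0.073 (without VPA replicate 1). It was -0.0728 with that array also out of the normalization and -0.048 with median scaling, where the median over all genes was -0.017. All 6 arrays together called 272 of all genes higher and 25 lower. With 1 array left out these counts ran from 54 to 494 higher and from 5 to 127 lower, highest in both directions without VPA replicate 1 and lowest without control replicate 1, which tied with control replicate 3 for the lower genes. They were 477 and 120 with VPA replicate 1 also out of the normalization, 1365 and 1128 with array weights, and 178 and 13 with the replicate block. Median scaling gave 176 higher, and detection on all 6 arrays 14 lower.

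Of 702 log2 changes of the 39 genes under the alternatives, 629 kept their sign and their side of the threshold, 13 passed it in an alternative alone and 60 changed sign. With median scaling the sign changed for Mcm5 at 0.22, Fen1 at 0.31, Rrm1 at 0.13, Mcm2 at 0.20, Pold1 at 0.14 and Rrm2 at -0.021. With array weights it changed for Rpa1 at -0.12, Mcm4 at -0.14, Fen1 at 0.12, Chaf1b at -0.023, Rfc4 at 0.018, Rfc1 at -0.22, Chaf1a at -0.15, E2f1 at -0.065, Prim2 at 0.032, Gins3 at 0.12, Orc5 at -0.14, Ccne1 at 0.13 and Orc4 at 0.22. With VPA replicate 1 also out of the normalization it changed for Rpa1 at -0.086, Mcm4 at -0.13, Mcm6 at 0.049, Rrm1 at 0.043, Pold1 at 0.022, Gins4 at -0.0036, Rfc4 at 0.12, Rfc1 at -0.16, Chaf1a at -0.16, E2f1 at -0.030, Prim2 at 0.019, Gins3 at 0.20, Orc5 at -0.085, Ccne1 at 0.16 and Orc4 at 0.38. With 1 array left out at a time, signs changed within ranges of -0.32 to 0.16 for Ccne1, -0.16 to 0.098 for Chaf1a, -0.032 to 0.19 for Chaf1b, -0.030 to 0.090 for E2f1, -0.075 to 0.086 for Fen1, -0.37 to 0.20 for Gins3, -0.0036 to 0.21 for Gins4, -0.14 to 0.15 for Mcm4, -0.61 to 0.050 for Mcm6, -0.53 to 0.37 for Orc4, -0.086 to 0.25 for Orc5, -0.19 to 0.021 for Pold1, -0.080 to 0.020 for Prim2, -0.16 to 0.16 for Rfc1, -0.76 to 0.12 for Rfc4, -0.087 to 0.090 for Rpa1, -0.25 to 0.042 for Rrm1 and -0.13 to 0.32 for Rrm2. The cause was not tested.

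The titles give both groups replicate numbers 1 to 3, but nothing says that a number marks a shared culture day. Deviations from the group means correlated at 0.13, -0.056 and 0.052 between same-numbered arrays, and VPA replicates 2 and 3 each correlated better with a control of another number. The replicate block is therefore an alternative only, and with it 0 replication genes were called and their median was again -0.14.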
